A study of Homo sapiens with 28 samples.

Results

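The comparison sets AN3CA cells expressing delIDR1, a truncation of ARID1A named for its loss of the disordered region IDR1, against AN3CA cells expressing wild-type ARID1A (WT). AN3CA is a human endometrial carcinoma line, and polyadenylated RNA was sequenced without any further treatment. The rule took the labels of the libraries and no measured value: delIDR1 replicates 1 and 2 and WT replicates 1 and 2, 4 of 28 libraries in all. The libraries fitted with them carried CBR, a second ARID1A truncation, DBDmut, a mutant of the DNA-binding ARID domain, and an empty vector (replicates 1 and 2), with 2 libraries each. Cells expressing wild-type ARID1B and empty vector replicates 3 and 4, again 2 libraries each, served to choose a gene set. The fit that chose it also held cells with constructs labelled ARID1B S320_G327del and ARID1A DDX4, 2 libraries each. A fit of all 28 libraries was run as an alternative. Vector, promoter and clone number are not given in the labels. The labels do not tell whether the 2 libraries of a group are separate cultures. Every p-value therefore rests on library-to-library spread alone, possibly of technical origin.

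ARID1A is a large subunit of the canonical BAF complex, an ATP-driven machine that slides and ejects nucleosomes at enhancers and promoters. Outside its ARID domain and its C-terminal part, which holds the complex together, most of the protein is intrinsically disordered. ARID1B is its paralog and takes the same place in the complex, and ARID1A is often lost in endometrial carcinoma. BAF at enhancers is known to work with factors of the AP-1 and TEAD families, whose targets include genes of the extracellular matrix, of cell adhesion and of the actin cytoskeleton.

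The delIDR1 libraries held 20.8 and 20.2 M reads on genes and the WT libraries 17.4 and 21.7 M, so that 1 CPM, the level unit scaled to library size, stands for 16.5 to 21.8 reads. The share of stranded gene reads on the counted strand was 85.7 and 84.9% in delIDR1 against 87.3 and 87.8% in WT, and the share of reads naming no gene was 26.8 and 27.9% against 23.9 and 23.8%. Both measures separated the groups. Their part in the results was not tested. Counts that ignored strand kept 636 of the 679 falls and 464 of the 545 rises of at least 2-fold given below. Those counts share most of their reads with the counted strand, so the kept calls test neither measure. PTPRC, CD3E, HBB, DCN, LUM and KDR, markers of immune, red blood, fibroblast and endothelial cells, were at 0 in all 4 libraries. The summed level of 5 fibroblast markers was 19.9 and 19.3 CPM in delIDR1 against 36.1 and 39.6 CPM in WT, almost all of it PDGFRB, and that of 5 immune markers was 5.33 and 5.01 against 15.4 and 17.4 CPM, almost all of it CD68. Markers of the endometrial lineage were mixed: PAX2 stood at 49.4 and 52.7 CPM in delIDR1 against 36.7 and 38.5 CPM in WT, MSX1 and MSX2 at 7.19 to 8.34 CPM over the 4 libraries, and PAX8, EMX2, LHX1 and WT1 under 1 CPM. Epithelial markers were mixed too, with TJP1 at 167 to 189 CPM, KRT18 at 27.3 to 47.96 CPM, OCLN, CLDN4 and KRT8 at 2.53 to 6.63 CPM, and EPCAM and CDH1 under 1 CPM.

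Reads of ARID1A were counted over the whole gene, so RNA of the construct and of the cells' own gene could not be told apart. Copy for copy, a transcript with a deletion yields fewer reads. ARID1A stood at 629 and 611 CPM in the delIDR1 libraries, against 725 and 794 CPM in the WT libraries, and at 275 and 301 CPM with the empty vector. Scaled over all 28 libraries, it stood at 1035 and 999 CPM in CBR and 636 and 695 CPM in DBDmut. On that scale delIDR1 stood at 597 and 582 CPM and WT at 702 and 764 CPM. The part of construct RNA level in the results was not tested. Among the libraries fitted together, every ARID1A construct library lay above the empty vector. The delIDR1 libraries lay below the WT libraries (log2 fold change -0.29 ± 0.047, adjusted p = 2.81e-06; edgeR quasi-likelihood test with Benjamini-Hochberg adjustment over all genes, standard error after the log2 fold change, n = 2 per group). In the rest of the text a value with ± in parentheses is the log2 fold change of delIDR1 over WT with its standard error, unless another group is named. ARID1B stood at 70.8 and 70.9 CPM in the delIDR1 libraries, against 67.8 and 71.5 CPM in the WT libraries, and the groups overlapped (log2 fold change 0.024 ± 0.054, adjusted p = 0.72).

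Across the transcriptome delIDR1 differed from WT in both directions. Of 13912 genes tested, 8686 were called at an adjusted p under 0.05 (62.4%), 4111 higher in delIDR1 (29.6%) and 4575 lower (32.9%). With library sizes alone, without TMM scaling, the split was 5851 higher and 3177 lower and the median of all genes was 0.14 on the log2 scale in place of -0.0042, so the side on which small changes fall depends on the scaling. A fit of all 28 libraries called fewer genes, 2480 higher and 3234 lower. Counts of the gene lists below are to be read against the shares of all genes called, 29.6% higher and 32.9% lower, and those from the fit of all 28 libraries are given where they turn a list's balance or move its larger count by over 1.5 times. Calls of at least 2-fold were fewer: 545 genes higher (3.92%) and 679 genes lower (4.88%). Among genes with a mean log2 CPM of at least 1 that met the other conditions for being named, 397 fell and 212 rose, and the largest falls exceeded the largest rises in size. Replicates of a group lay close together, with a chi-square per gene between them of 1.17 in delIDR1 and 1.82 in WT where counting noise alone gives about 1, and the 4 libraries were non-overlapping between the groups for 82.1% of genes tested.

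**Figure D1:**
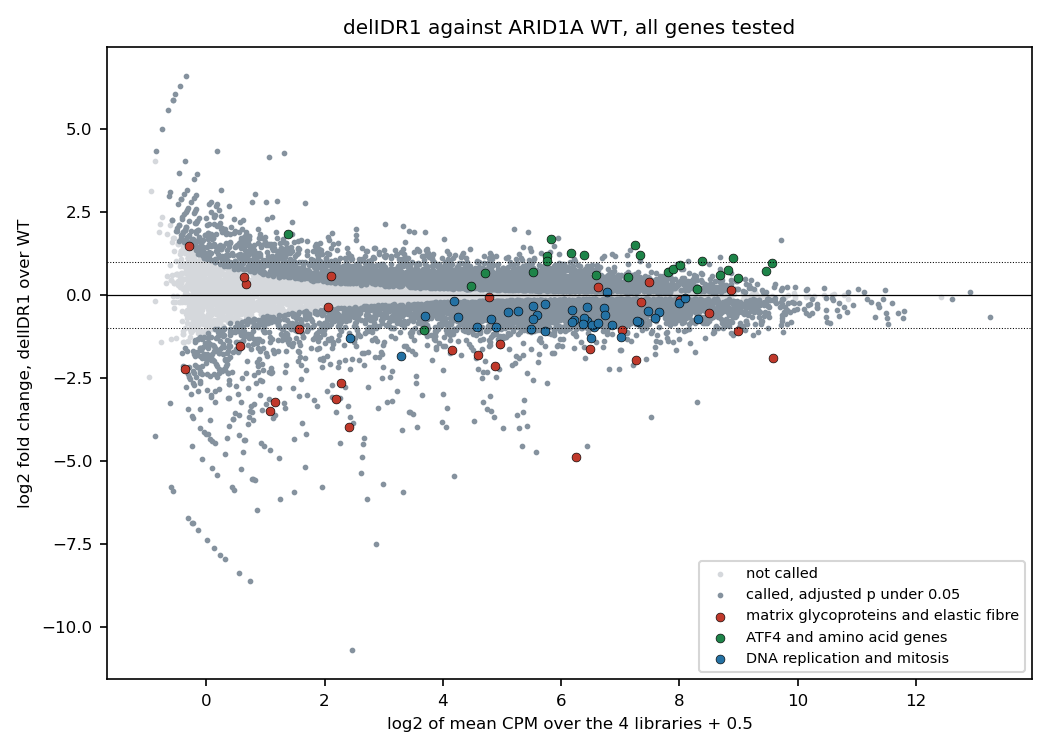
Log2 fold change of delIDR1 over WT (vertical axis) against the log2 mean CPM over the 4 libraries with 0.5 added (horizontal axis) for 13912 genes. Grey points are genes, dark grey where called at an adjusted p under 0.05, and dotted lines mark 2-fold; matrix glycoprotein and elastic fibre genes (red) and replication and mitosis genes (blue) lie mostly below 0 and ATF4 and amino acid genes (green) mostly above it. Folds of genes at 0 counts in a group are fitted values.

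The 12 largest falls at a mean log2 CPM of at least 1 were led by CD44, the receptor for hyaluronan on the cell surface. No read of CD44 was counted in either delIDR1 library, against 11.001 and 9.16 CPM in the WT libraries (370 reads), at least 143-fold lower against a floor of 3 counts over the group. It was also at 0 in both empty vector and both CBR libraries, and at 3.44 and 2.93 CPM in the DBDmut libraries. CACNG4, an auxiliary subunit of calcium channels, had 3 reads in delIDR1 and 506 in WT, a ratio of 195 in favour of WT (95% counting interval 66.4 to 950). PTPRO, a receptor tyrosine phosphatase, stood at 0.322 and 0.284 CPM in the delIDR1 libraries, against 18.9 and 18.7 CPM in the WT libraries (log2 fold change -5.93 ± 0.22, adjusted p = 4.15e-21). COL12A1, a collagen that decorates fibrils, stood at 0.689 and 0.898 CPM in the delIDR1 libraries, against 35.6 and 33.97 CPM in the WT libraries (log2 fold change -5.44 ± 0.15, adjusted p = 1.83e-24). In each of these genes both delIDR1 libraries lay far below both WT libraries. UBE2QL1 (-6.14 ± 0.26), AIM1 (-5.77 ± 0.32), PLAC8 (-5.68 ± 0.22), AMIGO2 (-5.37 ± 0.26), which encodes an adhesion protein, and RGS4 (-4.87 ± 0.22), which encodes a brake on G protein signalling, fell as well, and their delIDR1 levels were all under 0.5 CPM. Between delIDR1 and the empty vector 60.6% of genes tested were called, and PLAC8 and RGS4 were not (adjusted p = 0.778 and 0.742).

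MMP2, TNC and ACTA2 were the most abundant of the 12 in WT cells and ended at 3 different places relative to the empty vector. MMP2, a gelatinase that cuts basement membrane collagen, stood at 3.72 and 3.07 CPM in the delIDR1 libraries, against 91.6 and 89.6 CPM in the WT libraries, and at 0.092 and 0.183 CPM with the empty vector. The delIDR1 libraries lay below WT and above the empty vector without overlap (log2 fold change -4.73 ± 0.091, adjusted p = 2.08e-28 against WT; log2 fold change 4.57 ± 0.34 against the empty vector, adjusted p = 3.52e-13). TNC, the matrix glycoprotein tenascin-C, stood at 5.01 and 4.96 CPM in the delIDR1 libraries, against 139 and 153 CPM in the WT libraries, and at 7.77 and 6.87 CPM with the empty vector. Here the delIDR1 libraries lay below both (-4.87 ± 0.082 against WT and -0.55 ± 0.13 against the empty vector on the log2 scale, adjusted p = 3.93e-30 and 4.51e-04). ACTA2, the actin of smooth muscle and myofibroblasts, stood at 3.63 and 2.88 CPM in the delIDR1 libraries, against 75.1 and 78.4 CPM in the WT libraries, and at 28.9 and 29.2 CPM with the empty vector. Its delIDR1 level was the lowest of the 5 groups, -4.55 ± 0.094 against WT and -3.15 ± 0.11 against the empty vector on the log2 scale (adjusted p = 1.82e-27 and 1.34e-21). All libraries are bulk samples, in which fewer cells of a kind and less RNA per cell cannot be told apart.

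**Figure D2:**
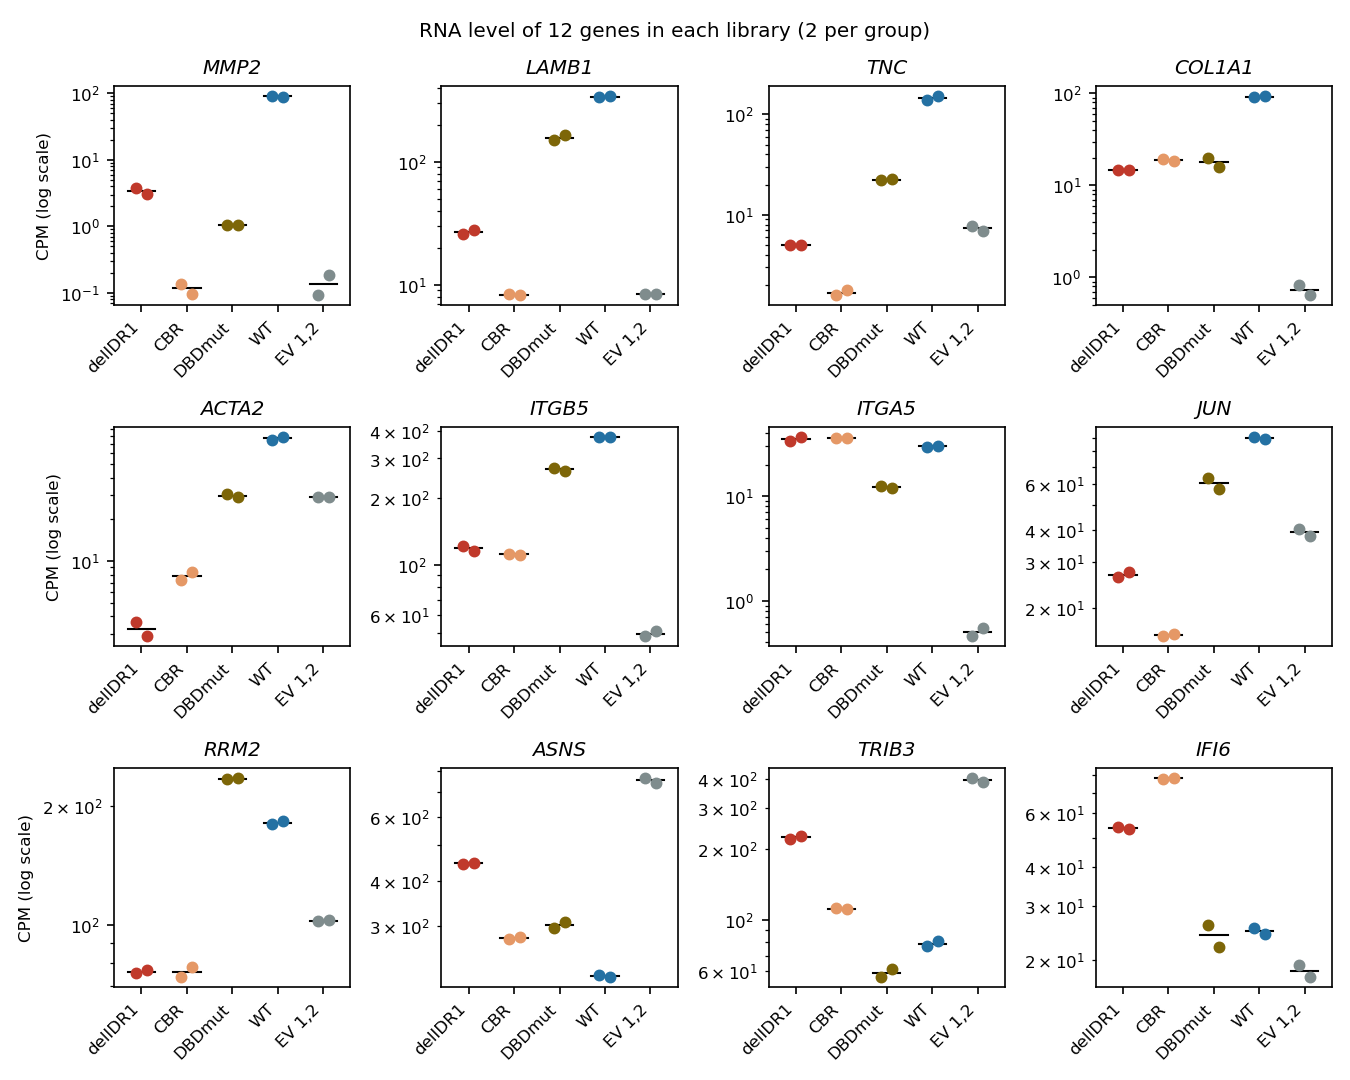
RNA level in CPM on a log axis of 12 genes in each library of the delIDR1, CBR, DBDmut, WT and empty vector (EV) groups; points are libraries and the bar is the mean of 2. In MMP2, LAMB1, TNC, COL1A1, ACTA2, ITGB5, JUN and RRM2 both delIDR1 points lie below both WT points, and in ITGA5, ASNS, TRIB3 and IFI6 above them.

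Matrix glycoprotein and elastic fibre genes had the lowest median of the lists with at least 5 tested members. Of 30 tested genes for matrix glycoproteins and elastic fibres, 21 fell, 4 rose and 5 were not called, 18 of the falls by at least 2-fold, with a median log2 fold change of -1.28 against -0.0042 over all genes. The 2 parts of the list differed. The 17 glycoproteins had 13 falls and 2 rises with a median of -1.62, and the 13 elastic fibre genes 8 falls and 2 rises with a median of -0.35. Among the glycoproteins THBS1, which activates latent TGF-beta, stood at 329 and 327.3 CPM in the delIDR1 libraries, against 1168 and 1245 CPM in the WT libraries (log2 fold change -1.88 ± 0.042, adjusted p = 1.21e-26). MATN2, an adaptor of matrix filaments, stood at 42.4 and 45.3 CPM in the delIDR1 libraries, against 134 and 134 CPM in the WT libraries (log2 fold change -1.62 ± 0.054, adjusted p = 5.58e-22). Both were higher in delIDR1 than in the 2 empty vector libraries, at 152 and 156 CPM for THBS1 and 6.21 and 5.77 CPM for MATN2. Among the elastic fibre genes LOXL2, which crosslinks collagen and elastin, stood at 62.01 and 63.3 CPM in the delIDR1 libraries, against 240.3 and 245 CPM in the WT libraries (-1.96 ± 0.051 on the log2 scale). ELN, the elastin gene itself, stood at 11.1 and 10.5 CPM in the delIDR1 libraries, against 45.2 and 48.6 CPM in the WT libraries, with 0.092 and 0.0915 CPM in the empty vector libraries (-2.12 ± 0.085 against WT, adjusted p = 5.09e-20). The delIDR1 libraries lay between WT and the empty vector without overlap. FN1, the fibronectin gene, picked after its values were seen, was among those not called. It stood at 26.8 and 26.2 CPM in the delIDR1 libraries, against 26.5 and 28.2 CPM in the WT libraries, and the groups overlapped (-0.05 ± 0.072, adjusted p = 0.559).

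Collagen genes fell more often than they rose. Of 22 collagen genes tested 13 fell and 3 rose (median -0.72, against 32.9% of all genes lower and 29.6% higher), with 11 falls and 3 rises without TMM and 11 falls and 2 rises of 24 in the fit of all 28 libraries, and 5 of 6 fibrillar collagens were among the falls. COL1A1, a chain of type I collagen, stood at 14.7 and 14.8 CPM in the delIDR1 libraries, against 91.3 and 93.8 CPM in the WT libraries, with 0.828 and 0.641 CPM in the empty vector libraries. The groups did not overlap, and delIDR1 lay between WT and the empty vector (-2.65 ± 0.075 against WT, adjusted p = 6.24e-24; 4.32 ± 0.18 against the empty vector, adjusted p = 2.57e-19). Its partner chain COL1A2 stood at 2096 and 2074 CPM in the delIDR1 libraries, against 3842 and 3745 CPM in the WT libraries (-0.86 ± 0.041), and in delIDR1 below the empty vector libraries at 3301 and 2952 CPM. COL16A1, of the fibril-associated kind, stood at 4.6 and 4.35 CPM in the delIDR1 libraries, against 51.3 and 50.3 CPM in the WT libraries (-3.50 ± 0.094, adjusted p = 1.19e-24), and had 1 read in the 2 empty vector libraries together. The rises were COL6A1 and COL6A2, chains of the beaded collagen VI, and COL27A1, named here because they complete the count, with log2 fold changes of 0.80 ± 0.044, 0.77 ± 0.044 and 0.19 ± 0.062. Of 8 laminin chains 5 fell and 2 rose. LAMB1, a beta chain of laminins, stood at 25.6 and 28.1 CPM in the delIDR1 libraries, against 335 and 344 CPM in the WT libraries (-3.66 ± 0.058, adjusted p = 1.24e-30). LAMC1, the gamma chain it pairs with, stood at 622 and 632 CPM in delIDR1 and 1071 and 1066 CPM in WT (-0.77 ± 0.038). LAMB2 (0.26 ± 0.04) and LAMC3 (0.52 ± 0.18) rose.

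Of 17 matrix proteases and inhibitors tested, 12 fell and 4 rose (median -0.49), where 32.9% of all genes were lower and 29.6% higher. PLAU, the urokinase that starts the plasmin cascade, stood at 4.87 and 4.77 CPM in the delIDR1 libraries, against 44.9 and 45.6 CPM in the WT libraries (log2 fold change -3.23 ± 0.093, adjusted p = 8.53e-24). TIMP3, a matrix-bound inhibitor of metalloproteases, stood at 14.2 and 14.3 CPM in the delIDR1 libraries, against 41.2 and 39.1 CPM in the WT libraries (log2 fold change -1.49 ± 0.077, adjusted p = 4.37e-17). Empty vector libraries gave 0.874 and 1.14 CPM of PLAU, which delIDR1 exceeded (adjusted p = 1.98e-11), and 15.5 and 15.7 CPM of TIMP3, for which the test made no call (adjusted p = 0.206). Of 6 hyaluronan genes tested CD44 and 2 others fell and 2 rose. SERPINE2, an inhibitor of serine proteases, rose and stood at 95.3 and 92.7 CPM in the delIDR1 libraries, against 60.7 and 62.5 CPM in the WT libraries (0.61 ± 0.053, adjusted p = 1.10e-11).

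Adhesion and contractile genes fell with few exceptions. Of 24 tested integrin and focal adhesion genes 20 fell, 3 rose and 1 was not called (median -0.67), and all 10 adaptors and kinases were among the falls (7 of 10 without TMM). ITGB5, the beta subunit of a vitronectin receptor, stood at 122 and 116 CPM in the delIDR1 libraries, against 374 and 374 CPM in the WT libraries (log2 fold change -1.65 ± 0.044, adjusted p = 1.47e-24). ITGB8, which helps to activate latent TGF-beta, stood at 13.7 and 14.3 CPM in the delIDR1 libraries, against 72.9 and 69.5 CPM in the WT libraries (-2.34 ± 0.073) and below the empty vector libraries at 22.5 and 24.1 CPM. ACTN1, which crosslinks actin at adhesions, stood at 239 and 233 CPM in the delIDR1 libraries, against 513 and 525 CPM in the WT libraries (-1.13 ± 0.043). ZYX, an adaptor that senses tension, stood at 239 and 247 CPM in delIDR1 and 506 and 536 CPM in WT (-1.10 ± 0.043). The 3 rises were ITGA5, ITGA7 and ITGB4. ITGA5, the alpha subunit of the fibronectin receptor, stood at 33.5 and 36.7 CPM in the delIDR1 libraries, against 29.6 and 30.2 CPM in the WT libraries, and at 0.46 and 0.549 CPM with the empty vector. Its delIDR1 libraries lay above WT by a small margin (0.23 ± 0.069, adjusted p = 0.00464) and far above the empty vector (6.10 ± 0.15 on the log2 scale, adjusted p = 1.03e-25).

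Of 14 contractile genes 11 fell, 2 rose and 1 was not called (median -0.80). TAGLN, an actin-bundling protein of smooth muscle, stood at 5.19 and 6.05 CPM in the delIDR1 libraries, against 69.8 and 68.9 CPM in the WT libraries (log2 fold change -3.62 ± 0.088, adjusted p = 1.01e-25). TPM1, a tropomyosin that lines actin filaments, stood at 57.1 and 54.3 CPM in the delIDR1 libraries, against 241 and 238 CPM in the WT libraries (-2.11 ± 0.049). CALD1, a regulator of actomyosin, stood at 289.5 and 289 CPM in delIDR1 and 677 and 658 CPM in WT (-1.21 ± 0.041). TAGLN in delIDR1 was not called against the empty vector (adjusted p = 0.114), with 6.35 and 6.91 CPM in the empty vector libraries. The 2 rises, completing the count, were DES (1.89 ± 0.54), under 1 CPM throughout, and SRF (0.21 ± 0.053).

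Targets of YAP and TEAD, the effectors of the Hippo pathway that respond to adhesion and tension, had a median log2 fold change of -1.02, with 15 falls, 1 rise and 4 not called of 20 tested, and 10 falls of at least 2-fold. AXL, a receptor tyrosine kinase, stood at 11.4 and 9.83 CPM in the delIDR1 libraries, against 48.7 and 51.2 CPM in the WT libraries (log2 fold change -2.23 ± 0.081, adjusted p = 4.74e-21). TGFB2, a TGF-beta ligand, stood at 9.79 and 9.93 CPM in the delIDR1 libraries, against 35.5 and 37.7 CPM in the WT libraries (log2 fold change -1.89 ± 0.092, adjusted p = 9.60e-18). CTGF, a matricellular protein and textbook YAP target picked after its values were seen, stood at 10.4 and 10.6 CPM in the delIDR1 libraries, against 33.5 and 40.02 CPM in the WT libraries (log2 fold change -1.81 ± 0.093, adjusted p = 3.90e-17). TGFB2 in delIDR1 was not called against the empty vector (10.9 and 10.9 CPM, adjusted p = 0.258), CTGF lay below it (15.4 and 16.1 CPM) and AXL above it (3.45 and 2.84 CPM). CYR61 (-1.06 ± 0.048) and CRIM1 (-0.99 ± 0.045) fell too, and the only rise was FOXF2 (0.97 ± 0.33), with 3 rises and 14 falls without TMM. Of 13 regulators of the pathway 7 fell and 4 rose, a split that turned to 5 falls and 6 rises without TMM. WWTR1, the gene of the YAP paralog TAZ, stood at 117 and 121 CPM in the delIDR1 libraries, against 272 and 273 CPM in the WT libraries (-1.20 ± 0.045). NF2, an upstream activator of the kinases, stood at 138 and 132 CPM in delIDR1 and 267 and 263 CPM in WT (-0.97 ± 0.045). TEAD1 stood at 385 and 383 CPM in delIDR1 and 572 and 590.1 CPM in WT (-0.60 ± 0.045).

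Promoters of TGFB2 and CTGF are shown because they hold GGAATG, the core letters of the TEAD element. The windows run from 250 bases before to 50 after the gene's start, taken from RefSeq in build GRCh38.p14, written on the gene's strand with the element in capitals, at chr1:218345086-218345385 (plus strand) and chr6:131951323-131951622 (minus strand).
TGFB2: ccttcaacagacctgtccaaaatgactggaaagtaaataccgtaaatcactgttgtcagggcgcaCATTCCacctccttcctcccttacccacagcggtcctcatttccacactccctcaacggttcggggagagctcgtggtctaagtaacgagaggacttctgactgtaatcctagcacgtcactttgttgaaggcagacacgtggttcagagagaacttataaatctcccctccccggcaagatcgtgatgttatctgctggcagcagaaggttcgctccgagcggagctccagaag
CTGF: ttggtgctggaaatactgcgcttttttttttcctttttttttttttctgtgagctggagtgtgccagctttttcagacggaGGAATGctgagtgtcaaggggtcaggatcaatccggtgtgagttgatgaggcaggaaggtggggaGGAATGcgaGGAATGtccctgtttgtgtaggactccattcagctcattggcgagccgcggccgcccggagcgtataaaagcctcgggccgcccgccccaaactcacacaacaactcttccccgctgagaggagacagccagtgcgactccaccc
CTGF holds 3 matches, starting 169, 104 and 95 bases before the start site, and TGFB2 holds 1, on the other strand. Searching both strands, 37.5% of 16 matched YAP/TEAD target promoters held GGAATG, against 11% of 10854 promoters of tested genes, 14.5% of 496 promoters of genes at least 2-fold lower and 9.86% of 355 promoters of genes at least 2-fold higher. The matches at both promoters overlap none of the other elements searched. The AP-1 element, TGA and TCA with any base between them, stood in 9.07% of the promoters of genes at least 2-fold lower, in 6.2% of those at least 2-fold higher and in 4.49% of those of tested genes. Over all 27305 RefSeq promoters, tested or not, GGAATG stood in 14% and the AP-1 element in 7.76%, nearer the shares of the lower genes. The list was made of genes known as YAP and TEAD targets, so its share of GGAATG tells nothing about delIDR1. Matches describe letters in these windows and no binding was measured here.

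**Figure D3:**
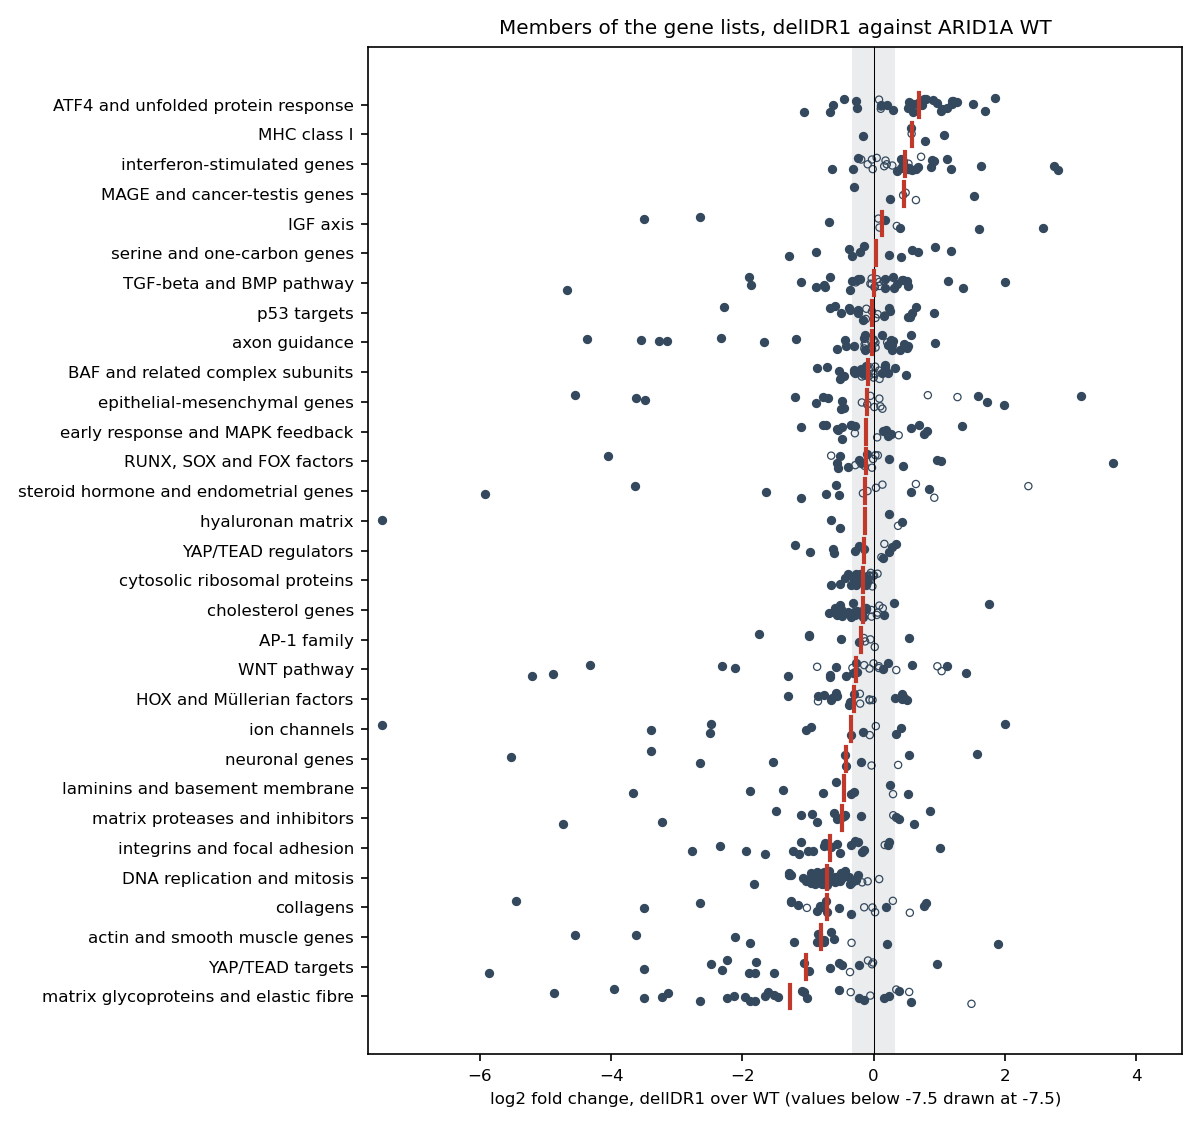
Log2 fold change of delIDR1 over WT for the tested members of each gene list with at least 5 tested members, ordered by median (red bar). Filled points are called at an adjusted p under 0.05, open points are not, and the grey band is the interquartile range of all genes (-0.31 to 0.31); the ATF4 list stands at the top (median 0.69) and the matrix glycoprotein list at the bottom (median -1.28).

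Among transcription factors, AP-1 subunits fell in 5 of 10 tested and rose in 1 (3 and 0 in the fit of all 28 libraries). JUN, the central AP-1 subunit, stood at 26.2 and 27.4 CPM in the delIDR1 libraries, against 90.97 and 89.5 CPM in the WT libraries, and at 40.2 and 37.9 CPM with the empty vector. Its delIDR1 libraries were below both (log2 fold change -1.75 ± 0.063, adjusted p = 2.81e-21 against WT; log2 fold change -0.54 ± 0.068 against the empty vector, adjusted p = 3.06e-08). FOSL2 stood at 89.7 and 88.8 CPM in the delIDR1 libraries, against 174 and 178 CPM in the WT libraries (-0.98 ± 0.046), ATF3 at 11.7 and 10.5 CPM in delIDR1 and 22.1 and 21.8 CPM in WT (-0.98 ± 0.092), and MAFF was the single rise, at 25.6 and 27.2 CPM in delIDR1 and 18.6 and 17.7 CPM in WT (0.54 ± 0.083). RUNX2, the master factor of bone formation, stood at 1.33 and 0.804 CPM in the delIDR1 libraries, against 16.1 and 19.4 CPM in the WT libraries, with no read in either empty vector library (-4.05 ± 0.18 against WT, adjusted p = 2.33e-18). Of 17 HOX genes, which give positional identity, 10 fell and 3 rose, against 32.9% and 29.6% of all genes, which became 4 and 2 in the fit of all 28 libraries. HOXA5 fell, at 33.4 and 30.3 CPM in delIDR1 and 51.98 and 48.5 CPM in WT (-0.65 ± 0.065), and HOXB9 rose, at 55.8 and 56.2 CPM in delIDR1 and 38.4 and 40.2 CPM in WT (0.51 ± 0.059). Of 20 RUNX, SOX and FOX factors 8 fell and 5 rose, with 4 falls and 8 rises without TMM and 3 falls and 5 rises of 21 in the fit of all 28 libraries. SOX9 fell by less than 2-fold, to 191 and 188 CPM in delIDR1 against 274 and 276 CPM in WT (-0.54 ± 0.044).

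Feedback regulators of MAPK signalling had 7 falls and 4 rises of 12 tested. DUSP5, which inactivates nuclear ERK, stood at 36.3 and 38.1 CPM in the delIDR1 libraries, against 78.3 and 80.9 CPM in the WT libraries (-1.10 ± 0.058, adjusted p = 8.68e-17). SPRED1, which blocks RAF activation, stood at 66.6 and 63.5 CPM in delIDR1 and 109 and 106 CPM in WT (-0.72 ± 0.053). Early response genes had 5 rises and 3 falls of 10, against 29.6% and 32.9% of all genes, and 2 of each in the fit of all 28 libraries. KLF10 stood at 34.5 and 33.7 CPM in delIDR1 and 19.4 and 19.5 CPM in WT (0.81 ± 0.071).

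Members of the signalling pathways went both ways. Of 29 WNT genes tested 14 fell and 5 rose (median -0.27). WNT7B, a ligand, stood at 0.23 and 0.189 CPM in the delIDR1 libraries, against 4.9 and 3.85 CPM in the WT libraries (-4.33 ± 0.34). DKK3, a member of the Dickkopf family of secreted modulators, stood at 0.046 and 0.189 CPM in delIDR1 and 3.14 and 4.05 CPM in WT (-4.89 ± 0.41). The receptors FZD4 (-0.67 ± 0.064) and FZD7 (-0.66 ± 0.057) fell by less than 2-fold. In the TGF-beta and BMP pathway 13 of 35 fell and 12 rose, which became 10 and 18 without TMM. NOG, a secreted BMP inhibitor picked after its values were seen, stood at 0.138 and 0.0945 CPM in the delIDR1 libraries, against 2.84 and 3.36 CPM in the WT libraries (log2 fold change -4.68 ± 0.40, adjusted p = 7.44e-12). Beside TGFB2, the members with the smallest p were 3 rises. INHBE, an activin subunit, stood at 8.69 and 8.23 CPM in the delIDR1 libraries, against 2.3 and 1.95 CPM in the WT libraries (log2 fold change 2.003 ± 0.16, adjusted p = 2.30e-12). ID2, a target of BMP signalling, stood at 143 and 141 CPM in delIDR1 and 60.4 and 69.2 CPM in WT (1.13 ± 0.059). CHRD, the BMP antagonist chordin, stood at 18.2 and 18.3 CPM in delIDR1 and 6.35 and 7.75 CPM in WT (1.36 ± 0.11). CHRD in delIDR1 also lay above the empty vector libraries, at 12.1 and 11.3 CPM.

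Of 10 genes of the insulin-like growth factor axis 4 rose and 3 fell, shares near the 29.6% and 32.9% of all genes. Without TMM 6 rose and 3 fell, and in the fit of all 28 libraries 1 rose and 3 fell. IGFBP5, a binding protein held in matrix, stood at 1.2 and 1.18 CPM in the delIDR1 libraries, against 7.62 and 7.31 CPM in the WT libraries (-2.64 ± 0.19). IGFBP3, the main carrier in serum, stood at 0.322 and 0.189 CPM in delIDR1 and 3.08 and 2.88 CPM in WT (-3.50 ± 0.34). GRB10, an adaptor that restrains the receptors, rose and stood at 2.85 and 3.07 CPM in the delIDR1 libraries, against 0.967 and 0.975 CPM in the WT libraries (1.60 ± 0.23, adjusted p = 5.42e-07), still under the empty vector libraries at 13.1 and 12.9 CPM. Axon guidance genes had 14 falls and 12 rises of 36 (11 and 16 without TMM). NTN4, a netrin of basement membranes, stood at 0.322 and 0.236 CPM in the delIDR1 libraries, against 2.78 and 2.73 CPM in the WT libraries (-3.27 ± 0.34), SEMA5B at 0.689 and 0.52 CPM in delIDR1 and 5.74 and 5.12 CPM in WT (-3.14 ± 0.25) and EFNB3, an ephrin ligand, at 84.1 and 85.1 CPM in delIDR1 and 42.9 and 44.99 CPM in WT (0.94 ± 0.058).

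Neuronal genes had 7 falls and 2 rises of 11, where 32.9% of all genes were lower and 29.6% higher. These became 5 and 2 without TMM and 4 and 1 in the fit of all 28 libraries. DCX, a microtubule protein of migrating neurons, stood at 0.965 and 1.47 CPM in the delIDR1 libraries, against 12.5 and 13.01 CPM in the WT libraries (log2 fold change -3.39 ± 0.18, adjusted p = 3.15e-16). L1CAM, a neural adhesion molecule, stood at 7.68 and 8.65 CPM in delIDR1 and 22.8 and 24.3 CPM in WT (-1.53 ± 0.10). VSTM2L stood at 3.49 and 2.65 CPM in delIDR1 and 18.4 and 20.2 CPM in WT (-2.65 ± 0.13). DCX and VSTM2L had no read in either empty vector library. MAP2, a microtubule protein of dendrites, had 2 reads in delIDR1 and 90 in WT, a ratio of 52.1 in favour of WT (95% counting interval 14.0 to 437). Of 13 channel subunits 8 fell and 3 rose. SCN9A, a voltage-gated sodium channel, stood at 2.8 and 2.88 CPM in the delIDR1 libraries, against 30.04 and 29.8 CPM in the WT libraries (-3.39 ± 0.12). KCNG1, a modulatory potassium channel subunit, rose and stood at 58.5 and 57.9 CPM in the delIDR1 libraries, against 14.3 and 14.6 CPM in the WT libraries (log2 fold change 2.01 ± 0.07, adjusted p = 1.35e-21), with 117 and 121 CPM in the empty vector libraries.

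Mesenchymal markers had 5 falls and 1 rise of 7 tested, and epithelial markers 4 falls and 3 rises of 13 (3 falls and 5 rises without TMM). Calls of at least 2-fold were 3 falls and 1 rise among mesenchymal markers and 1 fall and 3 rises among epithelial markers. Among epithelial genes picked after their values were seen, CLDN7 stood at 1.24 and 1.13 CPM in delIDR1 and 0.302 and 0.292 CPM in WT. ESRP1 stood at 1.06 and 1.47 CPM in delIDR1 and 0.0604 and 0.195 CPM in WT, and CLDN4 at 2.53 and 2.6 CPM against 6.29 and 5.51 CPM. VIM, the intermediate filament of mesenchymal cells, stood at 2693 and 2688 CPM in the delIDR1 libraries, against 4320.4 and 4382 CPM in the WT libraries, and at 3843 and 3858 CPM with the empty vector (-0.69 ± 0.033 against WT, adjusted p = 6.20e-18; -0.52 ± 0.033 against the empty vector). Both delIDR1 libraries lay below the other 4. S100A4, a calcium-binding protein of migrating cells, stood at 48.6 and 50.8 CPM in the delIDR1 libraries, against 93.1 and 90.3 CPM in the WT libraries (-0.88 ± 0.059).

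The 12 largest rises at a mean log2 CPM of at least 1 were smaller than the falls, between 1.82 and 2.79 on the log2 scale. HPCAL4, a neuronal calcium sensor, led them at 4.46 and 4.92 CPM in the delIDR1 libraries, against 0.665 and 0.682 CPM in the WT libraries (log2 fold change 2.79 ± 0.27, adjusted p = 1.99e-10). SMPDL3B, a membrane phosphodiesterase, stood at 12.9 and 11.96 CPM in the delIDR1 libraries, against 2.96 and 2.68 CPM in the WT libraries (log2 fold change 2.15 ± 0.13, adjusted p = 4.38e-15). LAMP3, a lysosomal membrane protein, stood at 15.3 and 15.5 CPM in the delIDR1 libraries, against 3.45 and 3.75 CPM in the WT libraries (log2 fold change 2.09 ± 0.13, adjusted p = 2.85e-15). HPCAL4 and SMPDL3B in delIDR1 lay above the empty vector libraries (0.184 and 0.595 CPM of HPCAL4, 1.66 and 1.56 CPM of SMPDL3B), while LAMP3 lay below them (37.7 and 42.9 CPM). CCPG1, a receptor for autophagy of the endoplasmic reticulum that overlaps a read-through gene, stood at 67.1 and 68.7 CPM in the delIDR1 libraries, against 19.2 and 17.5 CPM in the WT libraries (1.89 ± 0.08). SLC17A7, a vesicular glutamate transporter, stood at 19.2 and 20.2 CPM in delIDR1 and 5.2 and 5.31 CPM in WT (1.90 ± 0.12). GPD1, a glycerol phosphate dehydrogenase, stood at 3.68 and 3.59 CPM in delIDR1 and 1.09 and 0.536 CPM in WT (2.21 ± 0.28). ATP1B2 (1.88 ± 0.19), FGF21 (1.84 ± 0.25), a hormone of nutrient stress, INHBE and KCNG1 were also among them. HSPA7 (1.95 ± 0.12) is a near copy of HSPA6, and its reads are uncertain.

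The listed amino acid and ATF4 genes rose almost without exception. ATF4 is the factor of the integrated stress response that switches on amino acid transport and synthesis when amino acids or protein folding run short. Of 25 tested amino acid and ATF4 genes 24 rose, 10 by at least 2-fold, with a median of 0.79 against -0.0042 over all genes. ATF4 RNA itself, picked after its values were seen, stood at 565 and 569 CPM in the delIDR1 libraries, against 325 and 344 CPM in the WT libraries (log2 fold change 0.76 ± 0.042, adjusted p = 2.65e-16). TRIB3, a pseudokinase that feeds back on ATF4, stood at 222 and 228 CPM in the delIDR1 libraries, against 76.8 and 81.01 CPM in the WT libraries (log2 fold change 1.51 ± 0.049, adjusted p = 2.10e-22). ASNS, asparagine synthetase, stood at 445 and 449 CPM in the delIDR1 libraries, against 221 and 218 CPM in the WT libraries (log2 fold change 1.03 ± 0.041, adjusted p = 5.68e-20). In all 3 the delIDR1 libraries lay above both WT libraries. ATF5, a related factor, stood at 87.98 and 83.6 CPM in delIDR1 and 26.1 and 26.9 CPM in WT (1.69 ± 0.06). SLC7A5, a transporter of large neutral amino acids, stood at 662 and 653 CPM in delIDR1 and 291 and 312 CPM in WT (1.13 ± 0.043). The empty vector libraries carried more of TRIB3 (403 and 386 CPM), ASNS (766 and 743 CPM), ATF5 (155 and 156 CPM) and SLC7A5 (936 and 959 CPM) than delIDR1, and less of ATF4 (452 and 451 CPM). The exception within the list was VLDLR, a lipoprotein receptor, at 8.73 and 7.28 CPM in delIDR1 and 16.4 and 16.8 CPM in WT (-1.05 ± 0.11). ATF3 was counted with the AP-1 genes above, not in this list, and fell.

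Genes of the unfolded protein branch gave another count. Of 9 genes for chaperones and other factors of the endoplasmic reticulum 5 fell, 1 rose and 3 were not called (median -0.25), which became 4 falls and 4 rises without TMM and 2 falls and 0 rises in the fit of all 28 libraries. HSP90B1, an abundant chaperone picked after its values were seen, stood at 1972 and 1959 CPM in the delIDR1 libraries, against 3229 and 3014 CPM in the WT libraries (-0.67 ± 0.04), and the rise was HSPA5, the master chaperone (0.11 ± 0.038). Of 12 serine and one-carbon genes 6 rose and 6 fell, with 4 falls without TMM and 5 rises and 2 falls in the fit of all 28 libraries. PSAT1 of serine synthesis stood at 473 and 475 CPM in the delIDR1 libraries, against 246 and 247 CPM in the WT libraries (0.94 ± 0.041). ALDH1L2, a mitochondrial folate enzyme, stood at 171 and 163 CPM in delIDR1 and 72.6 and 74.2 CPM in WT (1.19 ± 0.052). TYMS, which makes thymidylate, stood at 52.8 and 51.6 CPM in the delIDR1 libraries, against 129 and 127 CPM in the WT libraries (-1.29 ± 0.052). MTHFD1, a cytosolic folate enzyme, stood at 126 and 128 CPM in delIDR1 and 226 and 239 CPM in WT (-0.87 ± 0.046).

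Promoters of ASNS and SLC3A2, the heavy chain partner of SLC7A5 and SLC7A11, are shown because they hold TGATGNAA, the composite element bound by ATF4. The windows are as above, in RefSeq build GRCh38.p14 at chr7:97872359-97872658 (minus strand) and chr11:62881449-62881748 (plus strand), with the element in capitals.
ASNS: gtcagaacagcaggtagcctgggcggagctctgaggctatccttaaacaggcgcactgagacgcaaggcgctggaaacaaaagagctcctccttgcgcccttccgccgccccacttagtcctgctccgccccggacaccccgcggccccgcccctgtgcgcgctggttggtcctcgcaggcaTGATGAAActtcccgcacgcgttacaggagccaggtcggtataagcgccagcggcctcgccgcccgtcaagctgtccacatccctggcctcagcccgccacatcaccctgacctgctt
SLC3A2: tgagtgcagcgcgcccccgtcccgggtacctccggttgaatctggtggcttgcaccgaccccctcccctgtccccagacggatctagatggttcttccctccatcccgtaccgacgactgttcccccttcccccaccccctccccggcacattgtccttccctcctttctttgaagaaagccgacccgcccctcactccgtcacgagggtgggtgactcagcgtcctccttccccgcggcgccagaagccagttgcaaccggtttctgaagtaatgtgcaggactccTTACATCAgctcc
In ASNS the match starts 68 bases before the start site, and in SLC3A2 it lies after the start site on the other strand. On both strands 28.6% of 21 matched promoters of the amino acid and ATF4 genes held TGATGNAA, against 1.7% of 10854 promoters of tested genes, 4.23% of 355 promoters of genes at least 2-fold higher and 2.62% of 496 promoters of genes at least 2-fold lower. Over all 27305 RefSeq promoters, tested or not, the share was 3.67%, near that of the genes at least 2-fold higher. SLC3A2, picked for its promoter, stood at 995 and 1015 CPM in the delIDR1 libraries, against 519.9 and 505 CPM in the WT libraries (log2 fold change 0.97 ± 0.047, adjusted p = 7.17e-18). Neither match overlaps another of the elements searched. The list was made of amino acid and ATF4 genes, so its share of TGATGNAA tells nothing about delIDR1.

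Replication and mitosis genes fell together. Of 40 tested, 37 fell, none rose and 3 were not called, with a median of -0.71, and without TMM 35 fell and 1 rose. RRM2, the regulated subunit of ribonucleotide reductase, stood at 75.6 and 76.7 CPM in the delIDR1 libraries, against 179.8 and 183 CPM in the WT libraries (log2 fold change -1.25 ± 0.047, adjusted p = 1.32e-20), and its partner RRM1 at 82.1 and 80.3 CPM in delIDR1 and 151 and 149.5 CPM in WT (-0.89 ± 0.048). MCM4, a subunit of the replicative helicase, stood at 64.95 and 62.7 CPM in the delIDR1 libraries, against 122 and 125 CPM in the WT libraries (log2 fold change -0.95 ± 0.054, adjusted p = 5.15e-16). The delIDR1 libraries were below WT in each of these, and RRM2 and TYMS were also below the empty vector libraries, at 102 and 103 CPM of RRM2 and 77.2 and 72.3 CPM of TYMS. The 3 not called were FOXM1 (0.085 ± 0.048), CCNE1 (-0.17 ± 0.084) and MCM7 (-0.091 ± 0.046). MKI67, the proliferation marker Ki-67 picked after its values were seen, stood at 242 and 228 CPM in the delIDR1 libraries, against 268 and 284 CPM in the WT libraries, lower by a small margin (-0.23 ± 0.051, adjusted p = 2.24e-04). How many cells were in cycle was not measured here.

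**Figure D4:**
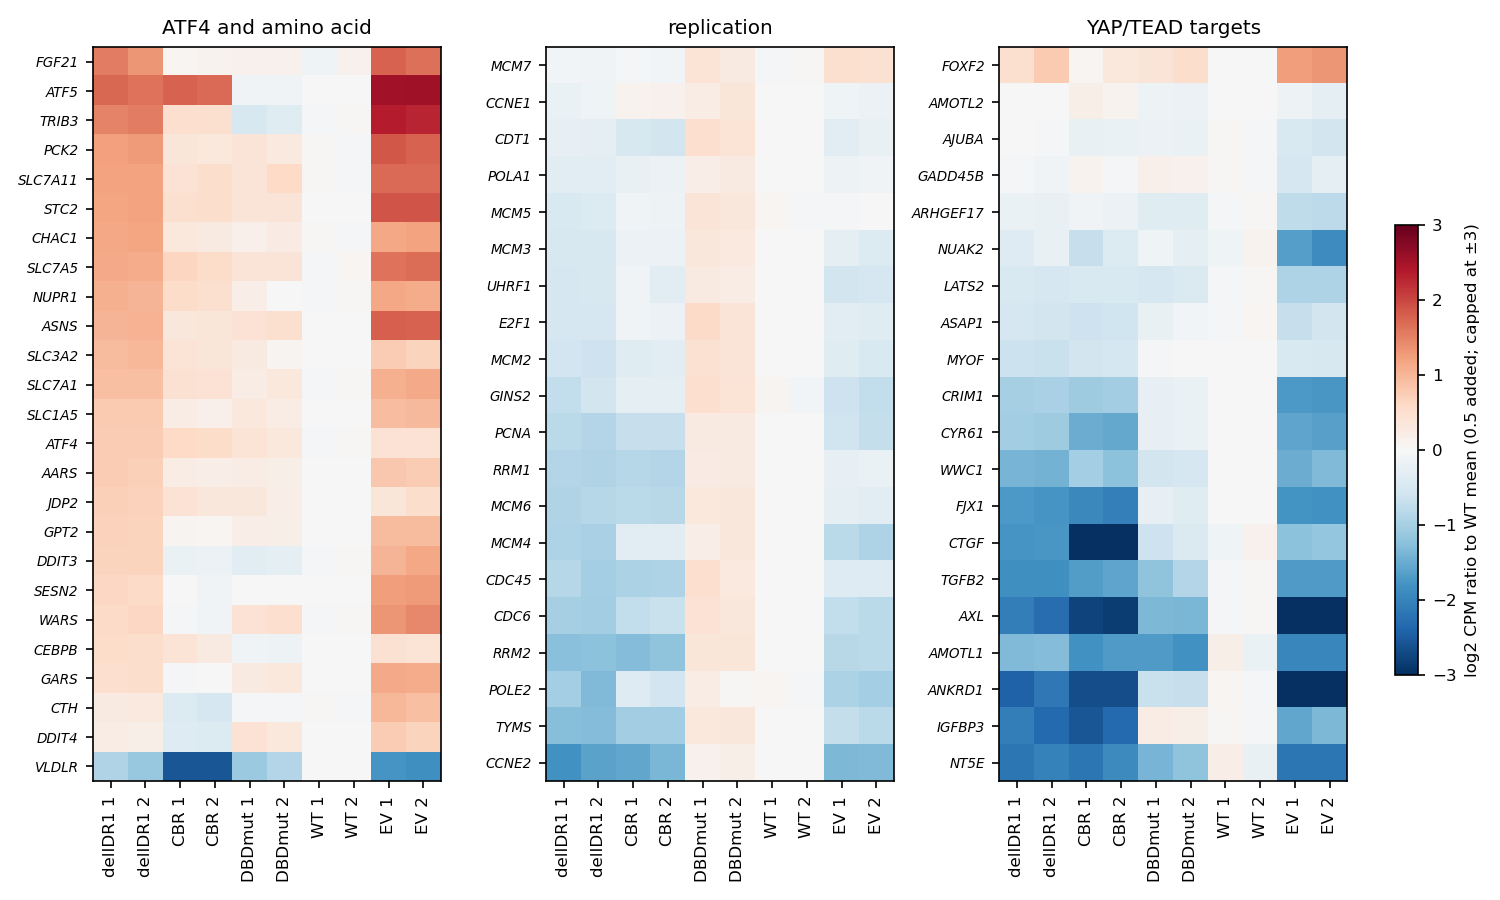
Log2 ratio of CPM to the mean of the 2 WT libraries (0.5 CPM added, colour capped at 3 either way) in each library for the tested ATF4 and amino acid genes, replication genes and YAP/TEAD targets, ordered by the fold change of delIDR1 over WT. Columns are libraries of delIDR1, CBR, DBDmut, WT and empty vector (EV); delIDR1 is red for 24 of 25 genes on the left and blue for most genes in the other panels.

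Ribosomal, sterol and p53 lists had small medians. Of 33 ribosomal protein genes 20 fell and none rose, by a median of -0.16. Without TMM 14 fell and 4 rose, and in a fit of all 28 libraries 2 fell. RPL5 stood at 765 and 769 CPM in delIDR1 and 1085 and 1101 CPM in WT (-0.51 ± 0.04), and reads of these genes may be shared with processed pseudogenes. Of 28 cholesterol genes 19 fell and 3 rose (median -0.17), which became 13 and 8 without TMM and 2 and 1 in a fit of all 28 libraries. HMGCS1, an early enzyme of sterol synthesis, stood at 431 and 429 CPM in the delIDR1 libraries, against 610.3 and 592 CPM in the WT libraries (-0.48 ± 0.041). Of 23 p53 targets 9 fell and 8 rose, shares near the 32.9% and 29.6% of all genes. These became 6 and 11 without TMM and 5 and 4 in the fit of all 28 libraries. FAS, a death receptor, stood at 2.85 and 2.79 CPM in the delIDR1 libraries, against 14.3 and 13.2 CPM in the WT libraries, and at 14.9 and 13.8 CPM with the empty vector, so that delIDR1 lay below both (-2.28 ± 0.14 against WT, adjusted p = 2.01e-15). GDF15, a stress cytokine, rose and stood at 105 and 105 CPM in delIDR1 and 74.7 and 72.2 CPM in WT (0.52 ± 0.053).

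Interferon-stimulated genes were more often higher than lower. Of 34 tested 19 rose, 3 fell and 12 were not called, with a median of 0.48. IFI6, a mitochondrial and reticular antiviral protein, stood at 54.1 and 53.5 CPM in the delIDR1 libraries, against 25.3 and 24.3 CPM in the WT libraries, and at 19.3 and 17.6 CPM with the empty vector. Its delIDR1 libraries lay above both (log2 fold change 1.12 ± 0.07, adjusted p = 5.74e-15 against WT; log2 fold change 1.55 ± 0.072 against the empty vector, adjusted p = 3.10e-18). IFIT2 stood at 75.6 and 74.7 CPM in delIDR1 and 42.7 and 39.1 CPM in WT (0.88 ± 0.061) and XAF1, an antagonist of apoptosis inhibitors, at 2.76 and 2.6 CPM in delIDR1 and 0.302 and 0.439 CPM in WT (2.81 ± 0.31). IFIT1, a sensor of foreign RNA, went the other way, at 71.9 and 72.3 CPM in the delIDR1 libraries, against 111 and 113 CPM in the WT libraries (-0.64 ± 0.05, adjusted p = 1.45e-12), and BST2 also fell (-0.24 ± 0.064). Of 5 tested MHC class I genes 3 rose and 1 fell: NLRC5, their transactivator, stood at 7.17 and 6.29 CPM in delIDR1 and 3.02 and 3.31 CPM in WT (1.08 ± 0.16), HLA-C at 73.8 and 75.6 CPM in delIDR1 and 48.7 and 52.2 CPM in WT (0.56 ± 0.064) and HLA-B at 1.47 and 1.42 CPM in delIDR1 and 0.725 and 0.926 CPM in WT (0.79 ± 0.30), while B2M, the shared light chain, fell, at 416 and 419 CPM in delIDR1 and 478 and 459 CPM in WT (-0.17 ± 0.043), and was not called without TMM. HLA genes are near copies of each other and their counts are uncertain.

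Genes of the BAF complexes changed by less than 2-fold throughout. Of 28 tested 12 fell and 6 rose, which became 8 and 10 without TMM. BCL7A, an accessory subunit, stood at 57.4 and 53.7 CPM in the delIDR1 libraries, against 99.3 and 103 CPM in the WT libraries (-0.86 ± 0.054). PHF10, a subunit of the PBAF form, stood at 35.7 and 35.6 CPM in delIDR1 and 59.4 and 57.8 CPM in WT (-0.71 ± 0.06). SMARCC1, a core scaffold, stood at 247 and 244 CPM in delIDR1 and 334 and 335 CPM in WT (-0.44 ± 0.041). The ATPase SMARCA4 stood at 369 and 368 CPM in the delIDR1 libraries, against 401 and 395 CPM in the WT libraries (-0.11 ± 0.04, adjusted p = 0.0156) and changed sign without TMM. The 3 subunits of the non-canonical form that were tested, BRD9, GLTSCR1 and GLTSCR1L, rose by 0.18 ± 0.05, 0.32 ± 0.064 and 0.49 ± 0.075 on the log2 scale.

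Among steroid hormone, retinoid and endometrial genes 7 of 16 fell and 2 rose (4 and 1 of 18 in the fit of all 28 libraries). ALDH1A1, which makes retinoic acid, had 3 reads in delIDR1 and 171 in WT, a ratio of 66.0 in favour of WT (95% counting interval 22.2 to 323). RARB, a retinoic acid receptor and target, stood at 7.4 and 6.52 CPM in the delIDR1 libraries, against 22.7 and 20.7 CPM in the WT libraries (-1.63 ± 0.11). RARA stood at 33.9 and 29.6 CPM in delIDR1 and 20.97 and 21.7 CPM in WT (0.57 ± 0.08). LIF, an implantation cytokine, stood at 31.3 and 28.3 CPM in delIDR1 and 43.9 and 42.6 CPM in WT (-0.53 ± 0.066). PRLR, the prolactin receptor, stood at 0.414 and 0.473 CPM in the delIDR1 libraries, against 0.423 and 0.439 CPM in the WT libraries, with 13.8 and 14.8 CPM in the empty vector libraries, and the cancer-testis gene MAGEC2 at 0.23 and 0.284 CPM in delIDR1 and 0.0604 and 0.244 CPM in WT, with 5.7 and 6.13 CPM in the empty vector libraries. Neither was called between delIDR1 and WT (adjusted p = 0.955 and 0.427), and both were lower in delIDR1 than with the empty vector (adjusted p = 2.85e-20 and 1.00e-14). MAGEC1 did rise, to 1.06 and 0.52 CPM in delIDR1 against 0.242 and 0.292 CPM in WT (1.53 ± 0.50, adjusted p = 0.0084).

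A set of genes chosen with none of these 10 libraries was lower in delIDR1 than in WT for most of its members. The set held 1018 genes called at least 2-fold higher in cells expressing wild-type ARID1B than in empty vector replicates 3 and 4, and 958 of them were tested here. The 1018 made up 7.62% of 13361 genes tested in that fit, which also held the ARID1B S320_G327del and ARID1A DDX4 libraries. Of the 958, 656 were lower in delIDR1 than in WT (68.5%, against 32.9% of all genes tested) and 95 were higher (9.92%, against 29.6%). Falls of at least 2-fold numbered 414 (43.2%, against 4.88%), and the median log2 fold change was -0.84. Set against empty vector replicates 1 and 2, delIDR1 had 516 of the 958 at least 2-fold higher (53.9%, against 8.03% of all genes) with a median of 1.31, and WT had 749 (78.2%, against 10.1%) with a median of 2.19. These 3 comparisons share libraries, so their values stand side by side only. With genes at 0 in a group set at their bound the last 2 medians were 1.29 and 2.18.

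**Figure D5:**
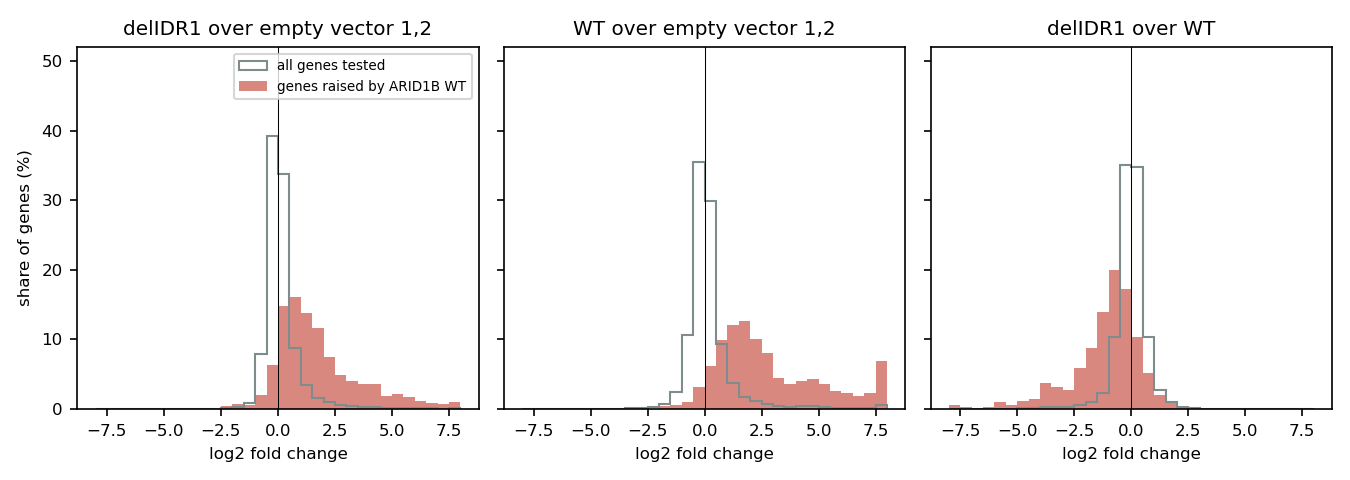
Distribution of log2 fold changes as a share of genes, for all genes tested (grey line) and for 958 tested genes raised at least 2-fold by ARID1B WT in other libraries (red), in 3 comparisons: delIDR1 over empty vector 1 and 2 (median of red 1.31), WT over the same empty vector libraries (2.19) and delIDR1 over WT (-0.84). Values past the ends of the axis are counted in the end bins.

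Against the other truncation CBR fewer genes were called than against WT, with 4069 of 13912 genes called (29.2%), 222 at least 2-fold higher (1.6%) and 56 lower (0.403%). ADORA1, an adenosine receptor, stood at 7.86 and 8.98 CPM in delIDR1 against 1.09 and 0.819 CPM in CBR (log2 fold change 3.13 ± 0.19, adjusted p = 4.29e-14). TOX2 (2.70 ± 0.25), ATP8B1 (2.60 ± 0.22), a lipid flippase, C15orf52 (2.58 ± 0.13) and CYP4F11 (2.54 ± 0.23), a cytochrome P450, were the other largest rises over CBR at a mean log2 CPM of at least 1. MMP2, less abundant, stood at 3.72 and 3.07 CPM in delIDR1 against 0.136 and 0.0963 CPM in CBR (4.80 ± 0.35, adjusted p = 3.32e-12). POSTN, the matrix protein periostin, was lower, at 8.14 and 8.46 CPM in delIDR1 against 23.8 and 24.8 CPM in CBR (-1.55 ± 0.099, adjusted p = 1.47e-13), and FAM83A, TG, GABRD and ACTA2 were the other largest falls at that level (-1.58 ± 0.22, -1.51 ± 0.27, -1.62 ± 0.18 and -1.26 ± 0.14). Of the 34 ATF4 and unfolded protein genes 27 were higher in delIDR1 than in CBR and 5 lower (median 0.56), against 15.4 and 13.9% of all genes. Other lists were as one-sided against CBR. Of 33 ribosomal protein genes 31 were higher and 0 lower (median 0.30), and of 28 cholesterol genes 24 were higher and 2 lower (median 0.38). Of 34 interferon-stimulated genes 2 were higher and 14 lower (median -0.22).

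Against DBDmut 8752 genes were called (62.9%), with 661 at least 2-fold higher (4.75%) and 483 lower (3.47%). PLAC8 stood at 0.276 and 0.284 CPM in delIDR1 against 10.03 and 10.5 CPM in DBDmut (log2 fold change -5.17 ± 0.23, adjusted p = 1.66e-18), and RGS4 (-4.98 ± 0.21), PLK2 (-3.48 ± 0.078), PRSS23 (-3.47 ± 0.091) and SLITRK6 (-3.47 ± 0.15) were the other largest falls at a mean log2 CPM of at least 1. FOLR1, a folate receptor, stood at 7.81 and 8.75 CPM in delIDR1 against 0.541 and 0.331 CPM in DBDmut (4.23 ± 0.24, adjusted p = 4.63e-16), and ABLIM3 (3.86 ± 0.29), CALHM2 (2.80 ± 0.25), MAST4 (2.75 ± 0.21) and PRSS8 (2.65 ± 0.20) were the other largest rises at that level. All 40 replication and mitosis genes were lower in delIDR1 than in DBDmut (median -1.01), against 30.9% of all genes. ELN was higher in delIDR1, at 11.1 and 10.5 CPM against 4.52 and 4.02 CPM in DBDmut (1.34 ± 0.13, adjusted p = 1.50e-10), and LAMB1 was lower, at 25.6 and 28.1 CPM against 150.4 and 164 CPM in DBDmut (-2.55 ± 0.059, adjusted p = 8.00e-26).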

How the data were processed

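Polyadenylated RNA was extracted with the RNeasy mini plus kit and made into NEBNext mRNA libraries, per the labels' protocols. Each library's file held deposited read counts per gene symbol from the authors, not normalized, in a column that ignores strand and a column for each strand. Build hg19, STAR 2.5.2b, Bowtie2 2.29 and bcl2fastq are named, per the submitters' processing notes. The fourth column, the strand that held most reads in every library, was used, and reads naming no gene were left out of library sizes. Of 26346 symbols, 13912 passed edgeR's expression filter.

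The edgeR 4.0.16 quasi-likelihood test (R 4.3.3, TMM scaling) was fitted to 10 libraries in 5 groups that share 1 strand profile, with Benjamini-Hochberg adjustment over all genes tested and a threshold of 0.05. CPM use TMM-scaled library sizes, and errors are standard errors of the log2 fold change, taken as its size over the square root of the F statistic. Alternatives were DESeq2 1.42.0, RLE scaling, other filters, other libraries, strand ignored and each library left out. Floors and intervals cover counting error only. Test code was checked on simulated counts.

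Genes were named by rule: the 12 largest called changes each way in the main comparison and the 5 largest against CBR and DBDmut, of at least 2-fold, with a mean log2 CPM of at least 1, no overlap between the groups, and the same direction and at least 0.5 of the log2 fold change with strand ignored. Non-coding and clone-named symbols were left out. Up to 4 called members of each list with the smallest p, the BAF subunits and a few genes known from earlier results were added. A few genes that the rule names are not reported here. Most genes outside the rule are marked as picked after their values were seen or are named to complete a count. Some, such as BST2, are not marked. Members and lists were chosen with earlier results of these data known. Replicate numbers did not pair the libraries: deviations of same-numbered delIDR1 and WT libraries correlated at 0.005 across genes, and over the 10 pairs of groups at -0.022 to 0.095.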

Additional observations from a re-analysis of the deposited data

How the results depend on the processing

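Of 183 named genes, 170 were called between delIDR1 and WT in the reported fit. The same call, with its direction where called, was kept by 149 under every alternative that tested them. A stricter filter left some of the 183 untested, and their comparisons with CBR and DBDmut were not checked gene by gene. SMARCA4 (log2 fold change 0.029) and SMARCD1 (0.023) changed sign with library sizes only, and neither was then called. The replicate block, which has no support as a pairing here, gave 8838 genes called between delIDR1 and WT, 544 at least 2-fold higher and 678 lower.

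Leaving out 1 library at a time gave 7492 to 7711 genes called between delIDR1 and WT, 3474 to 3511 higher and 4018 to 4200 lower, with 514 to 528 at least 2-fold higher and 652 to 692 lower. Counts of at least 2-fold higher and lower were then 1058 to 1095 and 203 to 218 for delIDR1 against the empty vector, 1381 to 1443 and 505 to 546 for WT against the empty vector, 177 to 197 and 40 to 47 against CBR, and 629 to 678 and 477 to 483 against DBDmut. Under the stricter filter, a log2 CPM averaging 1 or more, which leaves fewer genes to test, the same counts were 241 and 359 for delIDR1 against WT, 585 and 91 for delIDR1 against the empty vector, 825 and 289 for WT against the empty vector, 103 and 10 against CBR, and 285 and 297 against DBDmut. Among genes with a mean of at least 5 CPM in either group, a choice made after seeing the data, 156 were at least 2-fold higher in delIDR1 than in WT and 351 lower. A fit of all 28 libraries called 5714 genes between delIDR1 and WT, 2480 of them higher. It pooled empty vector replicates 3 and 4 with 1 and 2, and 311 genes were at least 2-fold lower in WT than in that pooled group. Against CBR it gave 125 higher and 21 lower, and DESeq2 gave 124 and 21 against CBR. The cause was not tested. With the paralog set limited to at least 4-fold, its median was -1.45. At 17.4 to 22.1 M reads a gene at 0 in a group is known only up to 3 counts over that group, and 2 libraries per group give no check of an outlying library.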

Other observations

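The gene families below were picked after their values were seen, so their counts are given as a description. Among receptor tyrosine kinases 14 of 27 tested were called lower in delIDR1 than in WT and 7 higher, where 32.9% of all genes were lower and 29.6% higher. FLT1, a receptor for vascular endothelial growth factor, stood at 7.4 and 7.52 CPM in the delIDR1 libraries, against 41.8 and 42.6 CPM in the WT libraries (log2 fold change -2.50 ± 0.086, adjusted p = 9.40e-22, edgeR quasi-likelihood test). EGFR, the receptor for epidermal growth factor, stood at 54.9 and 54.6 CPM in the delIDR1 libraries, against 116 and 124 CPM in the WT libraries (-1.13 ± 0.056), and RET, the receptor for glial-derived ligands, at 13.9 and 14.4 CPM in delIDR1 and 30.9 and 29.2 CPM in WT (-1.09 ± 0.081). ERBB3, which binds neuregulin, went the other way, at 38.8 and 38.7 CPM in the delIDR1 libraries, against 15.3 and 16.5 CPM in the WT libraries (log2 fold change 1.28 ± 0.074, adjusted p = 7.65e-16). In all 4 genes the delIDR1 libraries did not overlap the WT libraries, as was the case for 82.1% of all genes tested.

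Of 10 keratin genes tested 6 were called lower and 1 higher, against 32.9% and 29.6% of all genes. KRT13, KRT15 and KRT17 were among the falls and lay at 2.36 CPM or less in every delIDR1 and WT library. KRT80 stood at 1.75 and 1.61 CPM in the delIDR1 libraries, against 19.7 and 20.2 CPM in the WT libraries (-3.57 ± 0.14), and KRT18, a keratin of simple epithelia, at 27.3 and 28.6 CPM in delIDR1 and 47.4 and 47.96 CPM in WT (-0.77 ± 0.07). KRT10, a keratin of differentiated epidermis, was the exception, at 43.2 and 40.7 CPM in delIDR1 and 27.2 and 26.95 CPM in WT (0.63 ± 0.078). All 3 tested MHC class II genes were called higher, at low levels. HLA-DRB1 stood at 2.8 and 3.45 CPM in the delIDR1 libraries, against 0.423 and 0.439 CPM in the WT libraries (log2 fold change 2.84 ± 0.31, adjusted p = 1.48e-09), and its reads may be shared with near-identical genes.

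Of 51 protocadherin genes tested, adhesion proteins of neural cells, 23 were called higher and 10 lower, with a median log2 fold change of 0.48, and reads within their clusters may be shared. Of 18 core histone genes 3 were called higher and 3 lower, shares below the 29.6% and 32.9% of all genes. The HSP70 family, with 4 higher and 5 lower of 12, lay near those shares.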
